A study of Mus musculus with 16 samples.

Results

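The genes described here are 10 genes of lipid droplet coats and of the fat-hydrolysing machinery on them: the perilipins Plin2, Plin3, Plin4 and Plin5, the CIDE genes Cideb and Cidec, the lipases Pnpla2 and Pnpla3, and the lipase regulators G0s2 and Abhd5. They were taken by gene name from the tables of the study, which list 24539 genes, and all 10 were listed. Each name was a row of its own in every table. All 10 passed the filter on low counts in each comparison.

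The livers came from male C57BL/6 mice. In the HB group the mice ate a high-fat diet with added betaine, a methyl donor, and in the HF group the high-fat diet alone; both diets began at 8 weeks of age and lasted 8 weeks, so the mice were 16 weeks old. Neither group had a genetic change, and no group on ordinary chow was analysed here. For each diet there were 2 libraries of total polyadenylated mRNA, 2 of mRNA bound to translating ribosomes (ribosome-nascent chain complexes, here called ribosome-bound mRNA) and 2 of fragments bound by an antibody to N6-methyladenosine (m6A), a methyl mark on mRNA. The labels describe every sample as a pool over 2 independent experiments, and the p-values therefore measure the spread between these pools and not between single mice.

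Hepatocytes store triglyceride in lipid droplets, which are oil cores under a phospholipid layer. Perilipins cover that layer and limit the access of lipases, and CIDE proteins enlarge droplets by passing lipid from one to another or, for Cideb, load lipid onto very-low-density lipoprotein. Pnpla2 (ATGL) starts the hydrolysis of stored triglyceride, with Abhd5 (CGI-58) as its activator and G0s2 as its inhibitor. These proteins are known from fatty liver, where Plin2 and Cidec in particular rise with the amount of stored fat.

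Total mRNA libraries held 22492813 and 18011999 reads in HB and 11437462 and 11570775 in HF, and ribosome-bound libraries held 6508500 and 8659310 in HB and 5778439 and 6431510 in HF. The HB ribosome-bound pair was almost alike, with a chi-square over its degrees of freedom of 1.40, where repeated reads of 1 library would give about 1 and the other pairs gave 34.7 to 98.5. The pair was summed and counted as 1 sample. In the HF ribosome-bound pair, 1689 genes had 0 reads in replicate 1 and over 20 in replicate 2, and 1109 genes the other way round. The liver label fitted its markers: the 8 hepatocyte markers summed to 104500 and 96390 CPM (reads scaled to library size) in HB mRNA and 69060 and 73220 in HF mRNA, and 1 of the 8 rose (edgeR adjusted p under 0.05). Markers of other cell types were called too, where 11.3% of all 12817 tested genes were called higher and 10.1% lower. Of the red cell markers 3 of 5 rose (summed level 546 and 1620 CPM in HB, 384 and 322 in HF), of the macrophage markers 3 of 8 rose (319 and 298 in HB, 233 and 253 in HF), of the stellate cell markers 1 of 8 rose (217 and 166 in HB, 117 and 106 in HF), and the 3 tested of 5 neutrophil markers fell (3.62 and 4.13 in HB, 10.6 and 28.3 in HF). The 1 of 8 among the stellate cell and among the hepatocyte markers was near the share over all genes. No endothelial or cholangiocyte marker was called. The part of these cell types in the results below was not tested.

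In total mRNA, Plin2 and Cideb rose in HB livers, 5.97-fold and 2.52-fold, with both HB libraries above both HF libraries. Pnpla3 was called as well, on 1 HB library alone. No member fell by the same test. So 3 of the 10 genes were called higher and 0 lower, against 11.3% of 12817 genes called higher and 10.1% called lower. At an unadjusted p under 0.05 there were 6 higher and 1 lower, against 18.9% and 18.3% of genes. DESeq2 also called 3 members, with Cidec in place of Pnpla3, and 3031 genes in all. The members' median log2 change was 0.77, against 0.01 over all tested genes. In bulk liver, more cells of a type and more RNA per cell cannot be told apart.

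The promoters of the 3 called genes are shown because these are the members whose mRNA passed the test. Each line gives the 250 bases before the transcription start, read 5′ to 3′ on the gene's own strand, from RefSeq (GRCm38.p6), with every match to a searched motif in capitals. The windows are chr4:86670060-86670309 on the minus strand for Plin2, chr14:55758425-55758674 on the minus strand for Cideb, where the window runs into the neighbouring gene Ltb4r2, and chr15:84167566-84167815 on the plus strand for Pnpla3. The annotated span of Plin2 reaches 86670217, so part of its window, with the marked CCAAT, lies inside that span. The span of Pnpla3 begins at 84167776, so the last bases of its window lie inside it too.
Plin2: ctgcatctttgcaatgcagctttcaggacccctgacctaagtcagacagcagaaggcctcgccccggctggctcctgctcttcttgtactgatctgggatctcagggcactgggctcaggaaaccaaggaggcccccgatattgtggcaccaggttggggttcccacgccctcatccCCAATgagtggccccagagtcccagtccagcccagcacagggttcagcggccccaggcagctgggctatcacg
Cideb: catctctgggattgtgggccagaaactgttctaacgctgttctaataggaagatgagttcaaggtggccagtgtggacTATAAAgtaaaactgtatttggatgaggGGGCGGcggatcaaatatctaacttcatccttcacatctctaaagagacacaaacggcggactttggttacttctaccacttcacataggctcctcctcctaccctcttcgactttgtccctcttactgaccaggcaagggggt
Pnpla3: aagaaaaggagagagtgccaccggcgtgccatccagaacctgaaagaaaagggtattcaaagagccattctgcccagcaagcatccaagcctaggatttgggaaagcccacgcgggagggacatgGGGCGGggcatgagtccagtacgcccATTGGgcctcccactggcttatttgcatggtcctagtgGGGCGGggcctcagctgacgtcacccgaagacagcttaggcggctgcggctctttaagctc
The Plin2 window held a CCAAT box (CCAAT) at -73 to -69, counted in bases from the start. Cideb had a TATA box (TATAAA) at -172 to -167 and a GC box (GGGCGG) at -144 to -139, and Pnpla3 had 2 GC boxes, at -125 to -120 and -61 to -56, and a CCAAT box on the opposite strand (ATTGG) at -99 to -95. These letters are common: on either strand, CCAAT was in 33.8%, GGGCGG in 32.7% and TATAAA in 12.4% of 32851 RefSeq promoter windows. No window of the 10 genes held the direct repeat bound by PPAR receptors (2 copies of AGGTCA with 1 base between them, in 0.0335% of windows, or the looser AGGNCA in its place, in 0.338%), the core of a sterol response element (TCACNCCAC, 1.05%) or an E-box (CACGTG, 6.02%). Matches are letters in a window and no evidence of binding.

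The coats came apart in total mRNA. Plin2, the main perilipin of hepatocyte droplets (chromosome 4, 86626910 to 86670217, GRCm38.p6, minus strand), had 401 and 278 RPKM (reads per kilobase of transcript, scaled to library size within the kind of library) in HB mRNA, against 51.0 and 62.7 RPKM in HF mRNA. Every HB library was more than 4 times as high as either HF library. The means were 339.6 ± 87.1 RPKM in HB and 56.9 ± 8.28 RPKM in HF (SD, n = 2 each), a log2 change of 2.58 (SE 0.33, edgeR adjusted p = 0.00403). The call held with any 1 mRNA library left out (edgeR adjusted p between 0.000185 and 0.0239). In a joint edgeR fit with the ribosome-bound libraries, whose wider spread is then shared, 0 genes passed (1644 at an unadjusted p under 0.05), and the adjusted p was 0.275 for Plin2, 0.271 for Cideb and 0.626 for Pnpla3.

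Plin4, a perilipin best known from adipose tissue (chromosome 17, 56100587 to 56109948, minus strand), pointed the other way. It had 6.23 and 44.8 RPKM in HB mRNA, against 91.2 and 51.1 RPKM in HF mRNA. Both HB libraries were below both HF libraries, yet the HB replicates differed by -2.83 on the log2 scale (replicate 1 over 2), and 0.0624% of genes differed at least as far in that pair. The log2 change of -1.48 (SE 0.66) was not called (edgeR adjusted p = 0.125). It was -3.50 without HB replicate 2, -1.89 without HF replicate 2, -1.035 without HF replicate 1 and -0.66 without HB replicate 1.

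The other coats gave smaller differences. Plin3, a perilipin that shuttles between cytosol and droplet (chromosome 17, 56278962 to 56290511, minus strand), had 19.3 and 13.5 RPKM in HB mRNA and 8.99 and 10.3 RPKM in HF mRNA. The groups did not overlap, but the log2 change of 0.77 (SE 0.30) was not called (edgeR adjusted p = 0.0852; 0.0299 without HB replicate 2). Plin5, which links droplets to mitochondria (chromosome 17, 56111597 to 56117606, minus strand, beside Plin4), had 23.0 and 46.0 RPKM in HB mRNA and 48.9 and 28.4 RPKM in HF mRNA. These ranges overlap, with a log2 change of -0.17 (SE 0.37, edgeR adjusted p = 0.779).

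**Figure D1:**
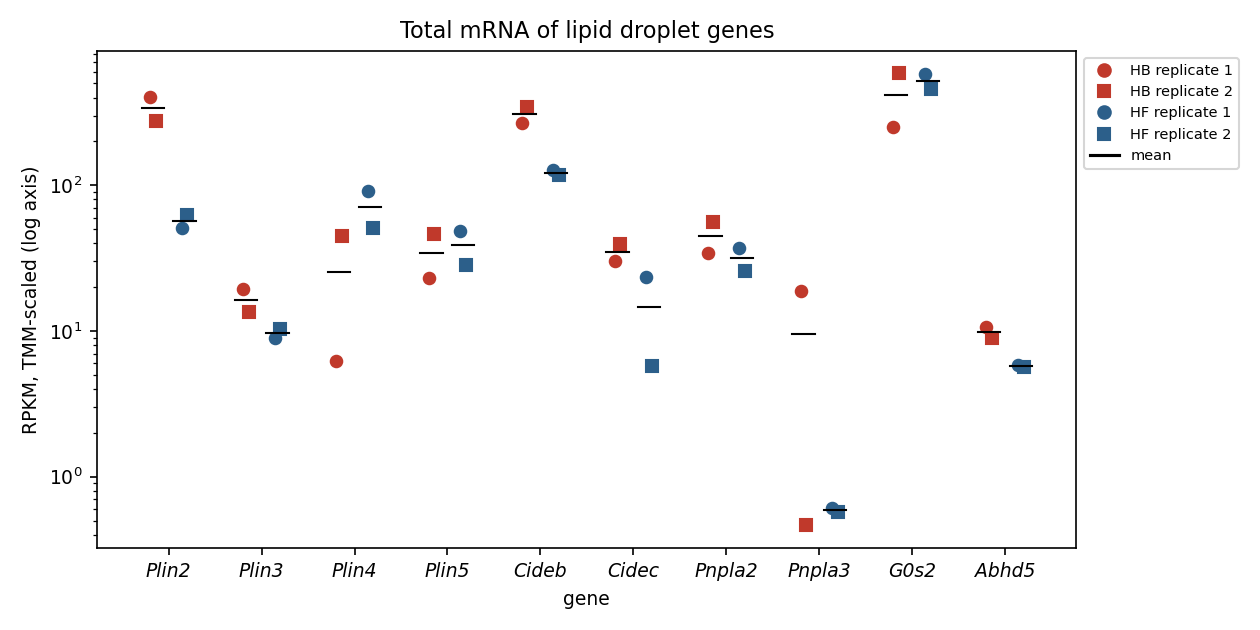
Level of each of the 10 genes in total mRNA (y axis, RPKM on a log scale) in the HB and HF libraries; points are single libraries and lines are the means of 2. Plin2 and Cideb stand higher in both HB libraries than in both HF libraries, while the HB points of Pnpla3 and Plin4 lie far apart.

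Of the CIDE genes, Cideb (chromosome 14, 55754052 to 55758424, minus strand, overlapping the spans of Nop9 and Ltb4r2) had 269.6 and 347 RPKM in HB mRNA, against 128 and 117 RPKM in HF mRNA. The HB libraries were both at least 2 times as high as the HF ones. The means were 308 ± 54.5 RPKM in HB and 122 ± 7.39 RPKM in HF (SD, n = 2 each), a log2 change of 1.33 (SE 0.30, edgeR adjusted p = 0.013). The call ended without HF replicate 1 (edgeR adjusted p = 0.085) or HF replicate 2 (0.105), with log2 changes of 1.38 and 1.24.

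Cidec (FSP27 in the older literature, which drives the fusion of droplets; chromosome 6, 113424634 to 113435760, minus strand, overlapping the RNA gene Gm52871) had 30.4 and 39.6 RPKM in HB mRNA, against 23.4 and 5.72 RPKM in HF mRNA. Both HB libraries were higher, and the spread sat in HF, where the replicates differed by 1.98 on the log2 scale (replicate 1 over 2); 0.265% of genes differed at least as far in that pair. The log2 change was 1.27 (SE 0.49, edgeR adjusted p = 0.0866, not called), and DESeq2 gave an adjusted p of 0.0468. Without HF replicate 1 it was 2.60 (edgeR adjusted p = 0.000696), and without HF replicate 2 it was 0.55.

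Among the lipases, Pnpla2 (chromosome 7, 141455188 to 141460743, plus strand) had 34.3 and 56.0 RPKM in HB mRNA and 37.4 and 25.8 RPKM in HF mRNA. The groups overlapped, and the log2 change of 0.51 (SE 0.33) was not called (edgeR adjusted p = 0.273).

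Pnpla3, a droplet-bound relative of Pnpla2 whose human gene carries a well-known fatty liver variant (chromosome 15, 84167776 to 84189521, plus strand), was set by 1 library. It had 18.7 and 0.464 RPKM in HB mRNA (1831 and 34 reads), against 0.611 and 0.574 RPKM in HF mRNA (36 and 34 reads). HB replicate 1 stood far above the other 3 libraries, and HB replicate 2 was the lowest of the 4. The fitted log2 change was 4.02 (SE 1.11, edgeR adjusted p = 0.027; DESeq2 adjusted p = 0.0966), and without HB replicate 1 it was -0.34 (edgeR adjusted p = 0.705). The HB replicates differed by 5.04 on the log2 scale, and 0.0078% of 12817 genes differed at least as far.

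The regulators of Pnpla2 were measured at very different levels. G0s2, the inhibitor (chromosome 1, 193272160 to 193273188, minus strand), had 252 and 587 RPKM in HB mRNA and 578 and 456 RPKM in HF mRNA. HB replicate 1 was the lowest and HB replicate 2 the highest of the 4, with a log2 change of -0.30 (SE 0.38, edgeR adjusted p = 0.599). It was -1.03 (edgeR adjusted p = 0.0422) without HB replicate 2 and 0.19 without HB replicate 1. Abhd5, the activator (chromosome 9, 122351616 to 122381524, plus strand), had 10.6 and 8.95 RPKM in HB mRNA and 5.86 and 5.66 RPKM in HF mRNA. Both HB libraries were higher, by a log2 change of 0.77 (SE 0.28) that was not called (edgeR adjusted p = 0.0744; 0.0411 without HB replicate 2).

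Counted over the members, both HB libraries lay above both HF libraries for 5 genes (Plin2, Plin3, Cideb, Cidec and Abhd5) and below them for 1 (Plin4), against 32.8% and 32.1% of all tested genes, and 4 overlapped. The count of edgeR calls moved with 1 library: without HB mRNA replicate 2, 7 members were called, as were 3198 genes in all, against 2740 with every library. The additional members were Plin3, Plin4, G0s2 and Abhd5. The median absolute difference between the replicates was 0.62 on the log2 scale for the members in HB mRNA, against 0.39 over all genes, and 0.32 against 0.26 in HF mRNA.

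In HB mRNA the order of the mean levels per length was G0s2 (419 RPKM), Plin2 (339.6), Cideb (308), Pnpla2 (45.2), Cidec (35.0), Plin5 (34.5), Plin4 (25.5), Plin3 (16.4), Abhd5 (9.79) and Pnpla3 (9.60). In HF mRNA it was G0s2 (517 RPKM), Cideb (122), Plin4 (71.1), Plin2 (56.9), Plin5 (38.7), Pnpla2 (31.6), Cidec (14.6), Plin3 (9.66), Abhd5 (5.76) and Pnpla3 (0.592). The top 3 in HB overlapped in their libraries, as did Pnpla2, Cidec, Plin5 and Plin4. In HF, G0s2 lay above Cideb and Cideb above Plin4 in both libraries, and Plin4 overlapped Plin2.

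**Figure D2:**
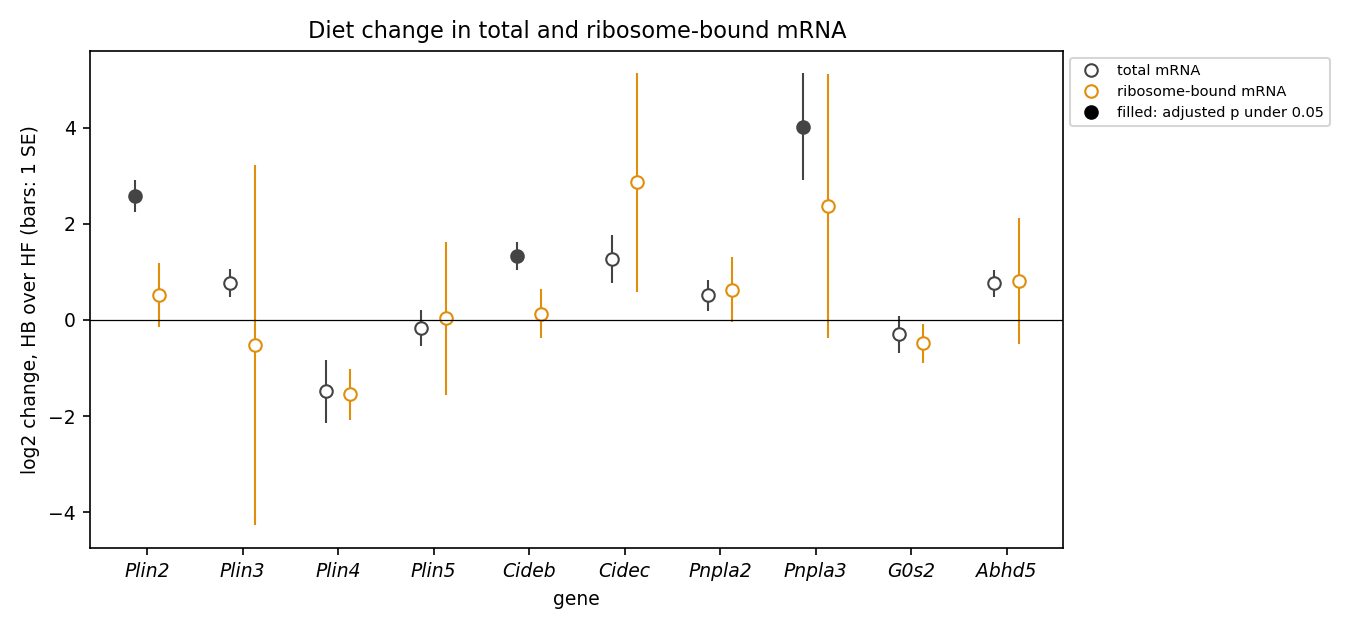
Log2 change, HB over HF, (y axis, bars of 1 SE) of the 10 genes in total mRNA and in ribosome-bound mRNA; filled points passed an edgeR adjusted p of 0.05, total mRNA used 4 libraries and ribosome-bound mRNA 3 samples. Plin2 stands at 2.58 in total mRNA and 0.52 in ribosome-bound mRNA, and the bars of Cidec, Pnpla3 and Plin3 are wide in ribosome-bound mRNA.

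Other genes of droplets and lipolysis were read beside the members. The list was chosen with earlier results of these data known, so its counts against all genes describe the list and test nothing. Of a list of 37, 35 were tested in total mRNA; 10 were called higher and 2 lower, against 11.3% and 10.1% of all tested genes, with a median log2 change of 0.65, against 0.01 over all genes. Both HB libraries lay above both HF ones for 25 of the 35 and below them for 3, against 32.8% and 32.1% of all tested genes. The counts depended on single libraries: 19 genes of the list were called without HB replicate 2, 4 without HF replicate 1 and 4 without HF replicate 2.

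Cidea, the CIDE gene of brown fat and of steatotic liver, rose: it had 19.8 and 59.8 RPKM in HB mRNA and 8.95 and 5.39 RPKM in HF mRNA, a log2 change of 2.47 (SE 0.48, edgeR adjusted p = 0.00851). Fitm2, a protein of the endoplasmic reticulum needed for droplet budding, had 16.3 and 10.2 RPKM in HB and 4.13 and 4.16 RPKM in HF (log2 change 1.68, edgeR adjusted p = 0.00948). Lipa, the lysosomal acid lipase, had 62.7 and 54.4 RPKM in HB and 20.9 and 20.4 RPKM in HF (1.50, edgeR adjusted p = 0.00784). In each of these the HB libraries were higher without overlap, and so were those of Pnpla7, a lysophospholipase, at 33.9 and 35.5 RPKM in HB and 13.5 and 12.3 RPKM in HF (1.43, edgeR adjusted p = 0.00864). The genes that fell were 2 relatives of the Pnpla lipases that act on other lipids. Pnpla1, which makes skin acylceramides, had 2.02 and 4.87 RPKM in HB and 9.86 and 14.5 RPKM in HF (-1.83, edgeR adjusted p = 0.0122), and Pnpla6, a phospholipase, had 7.05 and 13.05 RPKM in HB and 23.0 and 19.2 RPKM in HF (-1.07, edgeR adjusted p = 0.0394).

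Several of these genes are also adipocyte genes. The 8 adipocyte markers summed to 74.7 and 138 CPM in HB mRNA and 64.4 and 49.6 CPM in HF mRNA. Of the 4 tested, 2 (Cidea and Cfd) rose, against 11.3% of all tested genes. Of the 8, 4 were at or near 0 in total mRNA. Adipoq had 0 and 12 reads in HB and 1 and 1 in HF, and Lep 0 and 2 in HB and 0 and 0 in HF. Retn had 2 and 3 in HB and 0 and 0 in HF, and Plin1, the perilipin of fat cells, 1 and 0 in HB and 1 and 0 in HF. These 4 had 0 reads in every ribosome-bound library. Others were present: Fabp4 had 138 and 209 reads in HB and 230 and 118 in HF mRNA, and Lipe 483 and 477 in HB and 350 and 302 in HF mRNA. In ribosome-bound mRNA, Fabp4 had 0 and 0 reads in HB and 189 and 107 in HF, and Lipe had reads in every library.

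**Figure D3:**
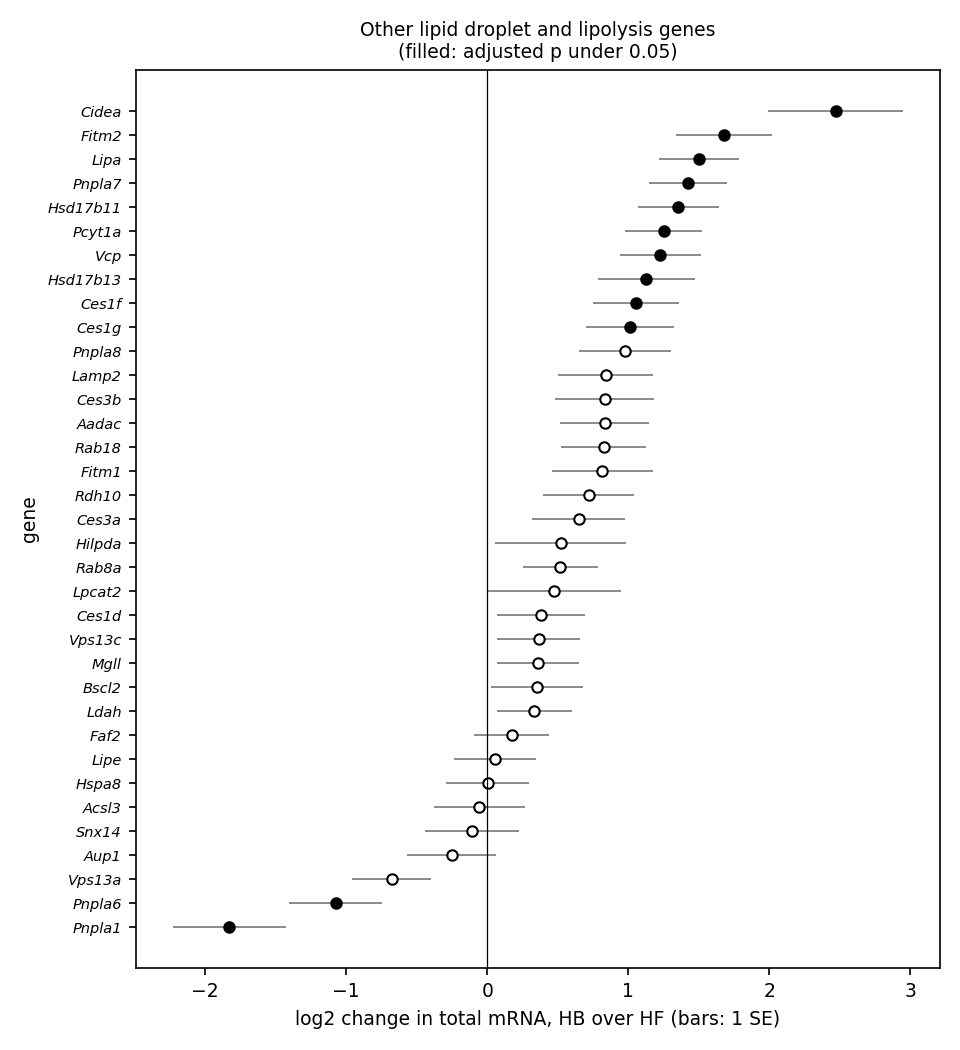
Log2 change, HB over HF, in total mRNA (x axis, bars of 1 SE) of the 35 tested genes of the wider droplet and lipolysis list, 1 point per gene; filled points passed an edgeR adjusted p of 0.05. Cidea, at 2.47, is at the top and Pnpla1, at -1.83, at the bottom, with 29 of the points above 0.

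In ribosome-bound mRNA the fitted log2 changes of Plin2 (0.52, SE 0.67) and Cideb (0.13, SE 0.51) were below those in total mRNA. With 1 ribosome-bound library left out, they ran from 0.013 to 1.28 for Plin2 and from -0.031 to 0.29 for Cideb. The size of the Plin2 difference was thus not settled. By edgeR no member and no gene at all was called (0% of 10986 tested genes; 350, or 3.19%, at an unadjusted p under 0.05), with 1 residual degree of freedom. The unadjusted test passed for 1 member, Plin4. DESeq2 called 663 genes, among them 1 member, Plin4 (DESeq2 adjusted p = 0.0072). The members' median log2 change was 0.33, against -0.01 over all tested genes.

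Plin2 had 75.8 and 81.5 RPKM in the HB pair (79.0 summed), against 32.6 and 77.5 RPKM in HF ribosome-bound mRNA. The HF replicates spanned more than the diets did, and the summed HB value was barely above the upper one (log2 change 0.52, SE 0.67, edgeR adjusted p = 1). Cideb had 107.5 and 106.9 RPKM in the HB pair and 87.7 and 108 RPKM in HF, which overlap (log2 change 0.13, SE 0.51, edgeR adjusted p = 1). Plin4 again lay lower in HB, at 24.0 and 22.9 RPKM, against 86.1 and 50.8 RPKM in HF (log2 change -1.55, SE 0.53, edgeR unadjusted p = 0.0303, adjusted p = 1). G0s2 was also lower in HB, at 327 and 315 RPKM, against 468 and 427 RPKM in HF (-0.48, SE 0.41).

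Cidec and Pnpla3 were split within HF. Cidec had 61.5 and 64.4 RPKM in the HB pair, against 17.4 and 0 RPKM in HF (655 and 913 reads in HB, 173 and 0 in HF), and Pnpla3 had 9.25 and 9.84 RPKM in the HB pair, against 3.72 and 0 RPKM in HF (269 and 381 reads in HB, 101 and 0 in HF). Each had 0 reads in HF replicate 2, which by counting error alone allows up to 3 reads at that depth. Each is among the 1109 genes with 0 reads there and over 20 in HF replicate 1. The fitted log2 changes were 2.86 (SE 2.27) for Cidec and 2.37 (SE 2.75) for Pnpla3, and without HF replicate 2 they were 1.86 and 1.37. In both genes the HB level was above both HF libraries.

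The remaining members had errors at or above the size of the difference. Pnpla2 had 28.8 and 33.5 RPKM in the HB pair and 23.6 and 17.0 RPKM in HF (log2 change 0.63, SE 0.68), and Abhd5 had 11.6 and 11.3 RPKM in the HB pair and 5.82 and 7.20 RPKM in HF (0.82, SE 1.31). Plin3 had 2.81 and 3.17 RPKM in the HB pair and 7.69 and 0.980 RPKM in HF (-0.52, SE 3.75), and Plin5 had 11.2 and 12.7 RPKM in the HB pair and 4.90 and 18.7 RPKM in HF (0.04, SE 1.59). For Plin3 and Plin5 the HB value lay between the HF libraries. In all, the summed HB value was above both HF libraries for 5 members (Plin2, Cidec, Pnpla2, Pnpla3 and Abhd5) and below both for 2 (Plin4 and G0s2), against 36.6% and 23.4% of all tested genes.

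**Figure D4:**
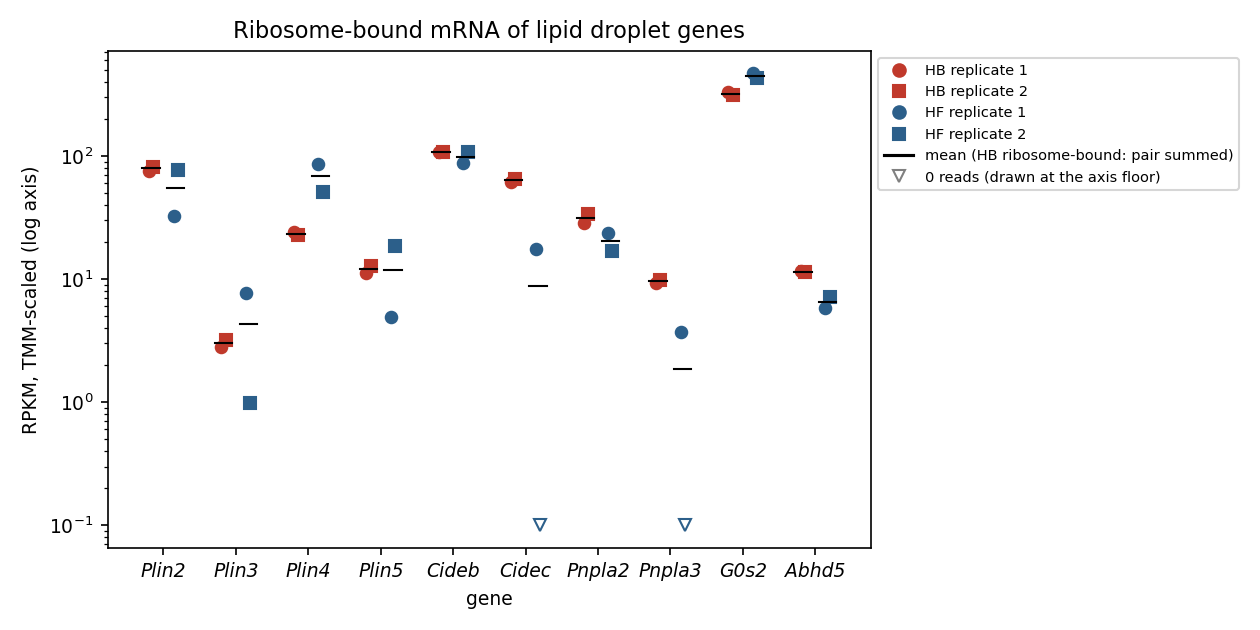
Level of each of the 10 genes in ribosome-bound mRNA (y axis, RPKM on a log scale) in the HB and HF libraries; points are single libraries, the HB line is the value of the summed pair and the HF line the mean of 2. Open triangles at the axis floor mark 0 reads. The HB pair is nearly superimposed, Cidec and Pnpla3 are at 0 in HF replicate 2, and Plin4 is lower in HB than in both HF libraries.

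Of the wider droplet list, 34 genes were tested in ribosome-bound mRNA and none was called by edgeR. At an unadjusted p under 0.05, 1 passed, against 3.19% of all tested genes. The median log2 change was 0.07, against -0.01 over all tested genes.

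For each diet, the share of a gene's mRNA found on ribosomes was read as a ratio, ribosome-bound over total mRNA, in a model of all 7 samples. The ratio is relative to the other genes of the libraries and has no absolute zero point. In HB, Cideb stood low, at -1.81 on the log2 scale (SE 0.31, edgeR adjusted p = 0.0243), and it was the 1 member called, against 27.3% of 13454 genes (21.7% lower). Plin2 was at -2.39 (SE 0.66, edgeR adjusted p = 0.0539; DESeq2 adjusted p = 0.00147), Plin3 at -2.73 (SE 1.35) and Plin5 at -1.80 (SE 0.99), none called by edgeR. The members' median was -0.74, against -0.90 over all genes. With any 1 of the 4 mRNA libraries left out, edgeR called 0 genes (4050 to 4425 at an unadjusted p under 0.05), and its adjusted p of Cideb was between 0.0741 and 0.0921.

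In HF livers no member was called by edgeR, against 29% of genes, and none had an unadjusted p under 0.05, against 38.9% of genes; DESeq2 and limma voom also called 0 members. Plin2 was at -0.31 (SE 0.48) and Cideb at -0.59 (SE 0.24, edgeR adjusted p = 0.139). Plin5 was at -1.97 (SE 0.77, edgeR adjusted p = 0.131), close to its value in HB. The lipase Pnpla2 was at -0.81 (SE 0.47) in HB and -0.90 (SE 0.37) in HF, and its activator Abhd5 at -0.06 (SE 0.45) in HB and -0.09 (SE 0.37) in HF. The members' median was -0.53, against -0.64 over all genes.

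The difference of the ratio between diets was tested directly. For Cideb it was -1.22 (SE 0.38, edgeR unadjusted p = 0.0236, adjusted p = 0.165) and for Plin2 -2.08 (SE 0.78, edgeR unadjusted p = 0.0454, adjusted p = 0.26). Neither was called, and no other member had an unadjusted p under 0.05. So 0 of 10 were called by edgeR, against 9.45% of genes, and 2 passed the unadjusted threshold, against 18% of genes. DESeq2 called 1 member, Cideb (DESeq2 adjusted p = 0.00536), and limma voom 0. Without HF ribosome-bound replicate 1 the value of Plin2 was -2.58 (edgeR adjusted p = 0.00297) and without replicate 2 it was -1.31 (edgeR adjusted p = 0.087); with no ribosome-bound replicate left, only the mRNA libraries set the spread of those fits. The ratio shares its libraries with the diet comparisons above, so these are not separate observations. Pnpla2 (0.10, SE 0.58), G0s2 (-0.20, SE 0.68) and Abhd5 (0.03, SE 0.58) were near 0, and Cidec (1.58, SE 2.87) and Pnpla3 (-1.67, SE 3.72) had errors larger than their values. Of the 36 genes of the wider list tested, 5 were called higher and 9 lower in the HB ratio, against 5.58% and 21.7% of all genes. In the HF ratio 3 were called higher and 5 lower, against 3.67% and 25.4%, and in the change between diets 3 higher and 2 lower, against 5.78% and 3.67%.

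m6A peaks were called by the authors in each library on its own, 22086 and 25718 in HB and 22060 and 24141 in HF, and every peak kept had a fold enrichment of at least 6.00. A peak was given to a gene where it overlapped the gene's span; exons were not used here. Of the 10 genes, 5 and 5 carried a peak in the HB libraries and 6 and 6 in the HF libraries, with 12 and 6 peaks in HB and 7 and 7 in HF. These counts per library are not set against all genes, so they cannot be read as high or low. In at least 1 library, 9 of 10 members carried a peak, against 82.6% of 12478 genes. Peak calling gives presence and not amount, and input libraries were not analysed here, so no test was made.

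Plin4 and G0s2 carried a peak in all 4 libraries, that is 2 of 10 members, against 35.9% of 12478 genes. On Plin4 the peaks formed 1 broad region of 3592 bases (chromosome 17, 56103687 to 56107278, mm10). It was cut into 4 and 2 peaks in HB and 1 and 2 peaks in HF, and the authors' highest fold enrichment per library was 18.0 and 19.2 in HB and 15.7 and 33.1 in HF. On G0s2 there was 1 peak per library in the same 411 bases (chromosome 1, 193272224 to 193272634), close to the 3′ end of this short gene. The summit of the highest of these peaks lay 282 bases from the end of the gene span, and the authors' fold enrichment was 6.37 and 6.19 in HB and 6.04 and 9.98 in HF, so 3 of the 4 were near the deposited minimum.

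Plin5 had a peak at chromosome 17, 56111844 to 56112255, also near the 3′ end of its span, in 3 libraries, with a fold enrichment of 7.72 and 9.94 in HB and 10.5 in HF replicate 2. Abhd5 had peaks in both HF libraries and in HB replicate 1 at 5 places, and the 1 place shared between libraries (chromosome 9, 122380638 to 122380965) had 6.29 in HB replicate 1 and 7.98 in HF replicate 1. Of 18 peak regions on the members, 4 were seen in at least 2 libraries, and these are the ones on Plin4, G0s2, Plin5 and Abhd5. The count of shared regions is not set against all genes.

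Cideb was the 1 member with no peak in any library, against 17.4% of genes. Plin2, the member with the largest change held by both HB libraries, had 1 peak, in HB replicate 2 (chromosome 4, 86650915 to 86651178; fold enrichment 8.26), 19027 bases from the start site. Pnpla3 had 3 peaks (fold enrichment 12.4, 14.9 and 14.0), all in HB replicate 1, which bears the same number as the mRNA library with 18.7 RPKM; the labels do not say that a number marks the same pool. Plin3 had 1 peak in HB replicate 2 and another, elsewhere on the gene, in HF replicate 1.

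Cidec and Pnpla2 had peaks in both HF libraries and in neither HB library, 2 of 10 members against 3.13% of genes, and 0 of 10 had the reverse, against 2.4% of genes. The HF peaks were not at the same place. On Cidec they were at 113434541 to 113434744 (fold enrichment 8.72, replicate 1) and 113435504 to 113435716 (6.94, replicate 2) on chromosome 6, both inside the overlapping RNA gene Gm52871, so the transcript cannot be told from these peaks. On Pnpla2 they were at 141459688 to 141460000 (6.60, replicate 1) and 141458508 to 141458791 (7.67, replicate 2) on chromosome 7. None of these 4 peaks had a fold enrichment of 10.

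**Figure D5:**
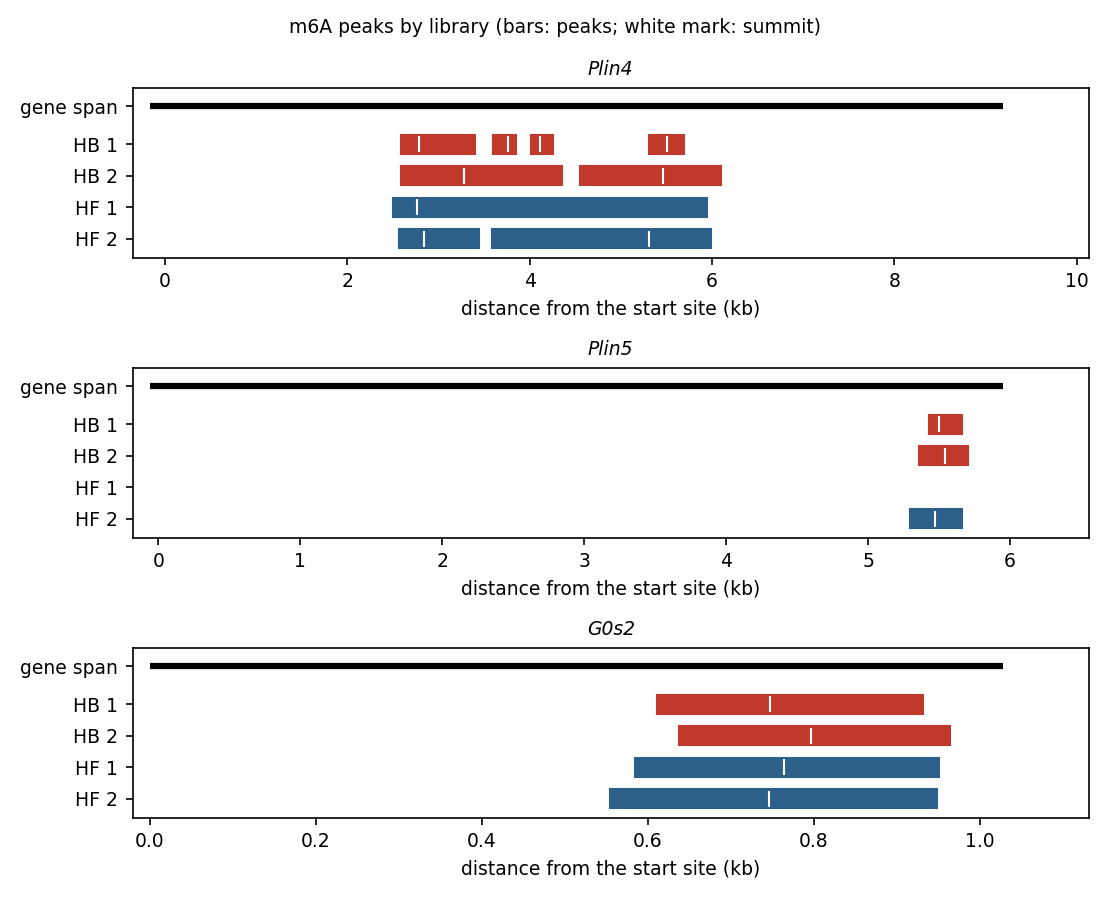
Position of the deposited m6A peaks on Plin4, Plin5 and G0s2, the members with a region shared by at least 3 libraries (x axis, distance from the start site in kb), 1 row per library with HB above HF; bars are peaks, white marks are summits and the black line is the gene span. Plin4 and G0s2 carry peaks in all 4 libraries, and Plin5 in all but HF replicate 1.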

How the data were processed

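Total and ribosome-bound mRNA of mouse liver was sequenced, and the authors deposited read counts per gene without normalization, beside an RPKM that, per the file headers, divides the count by the longest transcript's length and by library size. The authors' m6A peak lists give, per the file headers, a pileup signal, the −log10 of p and q, and a fold enrichment (a ratio over background); peaks were called per library. The submitters' processing notes name MACS2 2.1.0.20151222, HTSeq 0.6.0, HISAT2 2.0.4, HOMER 4.8, cutadapt 1.9.3, edgeR and mm10, with no roles; the labels' protocols name Trimmomatic 0.36 and TopHat 2.0.13. Strand use in counting is not given in the sources used here, so Plin2, Plin4, Cideb, Cidec and Pnpla3, whose spans overlap other annotated genes, may hold reads of those.

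Counts were analysed with edgeR 4.0.16 in R 4.3.3 (filterByExpr, TMM scaling, quasi-likelihood F test, Benjamini-Hochberg adjustment over all genes, threshold 0.05). The 4 mRNA libraries, the 3 ribosome-bound samples (HB pair summed) and the 7 samples together were fitted separately, with 2, 1 and 3 residual degrees of freedom. The common dispersion was 0.0644 in the first, 1.75 in the second and 0.481 in the third. SE is the log2 change over the square root of F. RPKM was recomputed after TMM within each kind of library, so levels of total and ribosome-bound mRNA are not on a common scale. Replicate differences used log2(CPM + 0.5). Alternatives were other scalings, no filter, DESeq2 1.42.0, limma 3.58.1 voom, a joint fit, the replicate number as a block, and leaving out each library. The edgeR script was tested on simulated data. For the ribosome-bound and 7-sample fits, the simulated dispersion was below that of the data, so the power of those tests was not checked. Peaks were assigned to genes by an overlap of 1 base with the RefSeq span (GRCm38.p6). The members, the wider list (whose named genes are the up to 4 called with the largest change in each direction) and the marker lists were chosen with earlier results of these data known. Of 16 samples, 12 were analysed. Intervals and read floors cover counting error only.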

Additional observations from a re-analysis of the deposited data

Results flagged for a closer look

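Of 36 tested genes of the wider droplet list, 5 (13.9%) differed between the diets in the ratio of ribosome-bound over total mRNA (edgeR, adjusted p under 0.05), against 9.45% of all genes in the same test. That list was chosen with earlier results of these data known. Rab18, a small GTPase of lipid droplets, had a log2 change of that ratio of -4.34 (edgeR adjusted p = 0.0419). It had 23.4 and 14.5 RPKM in HB and 10.9 and 10.5 RPKM in HF total mRNA, and 1.07 RPKM in HB and 16.3 and 7.91 RPKM in HF ribosome-bound mRNA. Ces1f, a carboxylesterase of the liver, had a change of -2.10 (edgeR adjusted p = 0.0456). It had 282 and 241 RPKM in HB and 104 and 148 RPKM in HF total mRNA, and 104 RPKM in HB and 209 and 216 RPKM in HF ribosome-bound mRNA; whether it shares reads with the related Ces1 genes was not tested. For Acsl3, which activates fatty acids on new droplets, the ribosome-bound level was at least 63.4-fold higher in HB, against the floor of 3 reads per HF library (447 reads in HB, 0 and 0 in HF; edgeR adjusted p = 0.0352 for the change of the ratio and 1 for the ribosome-bound level itself, unadjusted p = 0.0571). For Hilpda, an inhibitor of Pnpla2, it was at least 17.6-fold higher (124 reads in HB, 0 and 0 in HF; edgeR adjusted p = 0.0419 for the change of the ratio and 1 for the level, unadjusted p = 0.354), and for Lpcat2, which makes phosphatidylcholine, at least 15.9-fold higher (112 reads in HB, 0 and 0 in HF; edgeR adjusted p = 0.0354 for the change of the ratio and 1 for the level, unadjusted p = 0.375). The HB reads of these 3 come from a pair that counts as 1 sample. The floor of 3 reads covers counting error only. In the HF ribosome-bound pair, 1689 genes had 0 reads in replicate 1 and over 20 in replicate 2, and 1109 the other way round. A 0 there can thus stand beside a clear level in the other library, and the 3 fold values are lower bounds for counting error alone. By edgeR 0 genes were called in this test with any 1 mRNA library left out (1758 to 2167 at an unadjusted p under 0.05), or with the replicate number as a block (2612).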

How the results depend on the processing

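Members called in total mRNA numbered 5 with no filter, where 3603 genes were called in all, against 2740 in the main fit. In the joint fit 0 members, 0 genes and 0 of the wider list were called. In ribosome-bound mRNA, 663 genes and 1 member were called by DESeq2, 1432 genes by the joint fit and 1728 with the HB pair as 2 samples. For the ratio in HB, 4645 genes and 2 members were called by DESeq2, against 3676 genes in the main fit. With the HB pair as 2 samples it was 5428 genes and 2 members. For the change of the ratio, DESeq2 called 2233 genes and 1 member. With the HB pair as 2 samples it was 2053 genes and 1 member, and voom called 637 genes. Deviations of same-numbered libraries correlated at -0.118 between the mRNA groups, 0.00351 between the ribosome-bound groups, and 0.0351 in HB and 0.0996 in HF between kinds. The values 0.00351 and 0.0351 use the HB ribosome-bound pair, which was almost alike, so they could not show a pairing of samples. The other values showed no strong pairing by replicate number. With the replicate number as a block, 5 members and 2936 genes were called in total mRNA. With crossed numbers (added after seeing the data) 5 members were called. Under the block, the ratio in HB gave 1332 genes and 2 members, that in HF 19 genes, and its change 0 genes. Leaving out 1 library, total mRNA gave 784 to 3198 genes, 2 to 7 members and 4 to 19 of the wider list; ribosome-bound mRNA 0 to 0 genes and members without either HB library of the summed pair (no test could be made without an HF library); the ratio in HB 0 to 8686 genes and 0 to 4 members, in HF 0 to 7965 genes and 0 to 4 members, and its change 0 to 4882 genes and 0 to 2 members. For the ratios and their change, the lowest counts came without an mRNA library and the highest without an HF ribosome-bound library, when no ribosome-bound replicate was left to set the spread. Scaling by total counts moved the median over all genes by -0.288 in total mRNA (783 higher and 2320 lower calls, against 1446 and 1294), by 0.372 and 0.152 in the ratios of HB and HF and by 0.244 in their change; 3 members were still called higher in total mRNA. At a fold enrichment of at least 10, 1 member had an m6A peak in each library, and 7 regions and 1 shared region were left, against 13 to 16 and 3 to 4 with a library left out. The peak counts at this threshold are not set against all genes. Assignment of peaks to exons was not run.

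Directions that turned were all of members without a call in that comparison, except Pnpla3 in total mRNA. Ribosome-bound Plin5 was -0.00092 (RLE), -0.056 (total counts) and -0.0014 (DESeq2), and Plin3 0.092 under the block. In the HB ratio Pnpla3 was 0.040 (total counts), 1.03 (voom) and 1.32 (block), Abhd5 0.31 (total counts), and Plin4 0.23 (voom) and 0.15 (block). In the HF ratio Abhd5 was 0.00062 (RLE), 0.062 (total counts) and 0.0017 (DESeq2), and Pnpla3 -1.54 (voom) and -0.55 (block). In the change of the ratio Abhd5 was -0.047 (RLE) and -0.048 (DESeq2), Plin4 0.17 (total counts), 0.54 (voom) and 0.48 (block), G0s2 0.042 (total counts), and Pnpla3 2.57 (voom) and 1.87 (block). Leaving out 1 library, ranges that crossed 0 were, in total mRNA, G0s2 -1.03 to 0.19, Plin5 -0.74 to 0.26 and Pnpla3 -0.34 to 4.99; in ribosome-bound mRNA, Cideb -0.031 to 0.29, Plin3 -1.35 to 1.60 and Plin5 -0.64 to 1.30; in the HB ratio, Abhd5 -0.18 to 0.082, G0s2 -1.15 to 0.053, Plin4 -1.21 to 1.61 and Pnpla3 -1.26 to 4.09; in the HF ratio, Abhd5 -0.26 to 0.061, Cidec -11.49 to 0.32, Plin2 -1.08 to 0.19, Plin4 -0.74 to 0.14 and Pnpla3 -8.33 to 2.37; and in the change of the ratio, Abhd5 -0.12 to 0.20, G0s2 -0.67 to 0.53, Plin3 -2.13 to 0.82, Plin4 -0.89 to 1.94, Plin5 -0.49 to 1.46, Pnpla2 -0.20 to 0.49 and Pnpla3 -2.68 to 8.02. The causes were not tested. Some values rest on few reads: Pnpla3 had 34 to 36 reads in 3 of the 4 mRNA libraries. Cidec and Pnpla3 had 0 reads in HF ribosome-bound replicate 2. That library held 6431510 reads, against 5778439 in HF ribosome-bound replicate 1, where Cidec had 173 reads and Pnpla3 101.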

Other observations

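Ces3b and Fitm2, of the wider droplet list, are given here for their ribosome-bound levels. Ces3b was the 1 of 34 tested genes of the list with an edgeR unadjusted p under 0.05, against 3.19% of all tested genes. Ces3b, a carboxylesterase of the endoplasmic reticulum that handles liver triglyceride, had 2039 and 2024 RPKM in the HB pair, against 382 and 233 RPKM in HF ribosome-bound mRNA, a 6.60-fold difference (edgeR unadjusted p = 0.00139, adjusted p = 1). In total mRNA it had 261 and 132 RPKM in HB and 112 and 109 RPKM in HF (log2 change 0.83, edgeR adjusted p = 0.108). Fitm2 had 562 and 265 reads in HB and 86 and 87 in HF total mRNA but 0 reads in all 4 ribosome-bound libraries. By counting error alone, this allows up to 3 reads in each. Fewer genes were detected in the ribosome-bound libraries (8313 to 9374) than in total mRNA (14981 to 15556). Of the cell markers, Kdr and Lrat also had 0 reads in all 4 ribosome-bound libraries. In total mRNA, Kdr had 352 and 237 reads in HB and 119 and 170 in HF. The share of all genes with this pattern was not counted, so the zeros do not set Fitm2 apart.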
